A study of Mus musculus with 3 samples.

Results

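The Ly6 surface antigen genes Ly6a, Ly6c1, Ly6c2, Ly6e, Ly6g and Ly6i were followed in activated mouse macrophages. They are 6 of the 55536 annotated genes of the gene tables and 6 of the 22028 protein-coding ones. The genes were picked by symbol, with their levels in these libraries already known, so every level given here describes the libraries and none was tested. All 6 symbols matched 1 gene identifier each.

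Total RNA depleted of ribosomal RNA was sequenced from the cytosolic fraction of macrophages, primary cells grown from the bone marrow of C57BL/6J mice. All libraries belong to a single group. The cells had received 100 ng/ml Lipid A, the TLR4-activating part of bacterial lipopolysaccharide, for 12 h, had then been washed and kept without it for 12 h, and were then given the same dose again, 20 min before the end. There was no untreated group, so a level here cannot be related to the stimulation. The 3 libraries are labelled as biological replicates 1, 2 and 3 but share a single donor identifier, and age and sex were not collected. An SD therefore measures how far these samples differ, and that may be partly technical.

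Ly6 proteins are small, cysteine-rich proteins that are held on the outer face of the plasma membrane by a glycosylphosphatidylinositol (GPI) anchor. The mouse genes lie side by side on chromosome 15 and arose largely by local duplication, so several of them are close in sequence. In blood and marrow they serve as cell markers. Ly6a encodes the stem cell antigen Sca-1, which many activated cells also carry, the pair Ly6c1 and Ly6c2 encodes the Ly6C antigen of classical monocytes, and Ly6g encodes a marker of neutrophils. Ly6e is an interferon-induced gene whose product limits the entry of some viruses and promotes that of others.

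The coding sequences show how far the members can be told apart by sequencing. Ly6c1 and Ly6c2 have coding sequences of 396 bases each, 387 of which are identical (97.7%), with 9 substitutions and an identical run of 188 bases. The first 75 coding bases hold 6 of the 9 differences and are printed here from the GENCODE M21 transcripts, 5′ to 3′ on the minus strand of mm10, with the differing bases in capitals. Both stretches are joined from 2 exons, at chr15:75047465-75048511 for Ly6c1 and at chr15:75110623-75111667 for Ly6c2.
Ly6c1: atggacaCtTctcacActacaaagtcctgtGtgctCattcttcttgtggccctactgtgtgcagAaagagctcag
Ly6c2: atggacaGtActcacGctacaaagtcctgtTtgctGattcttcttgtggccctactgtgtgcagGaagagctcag
The other members are further apart. Ly6a and Ly6i, of 405 coding bases each, are 86.4% identical, and Ly6a and Ly6g are 83.2% identical over the same length. Ly6e stands off, with 411 coding bases and, gaps counted as differences, an identity between 48.2% and 52.6% to each of the other 5.

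Stretches shared with any other gene follow the same order. Of the 31-base words in the Ly6c1 transcript Ly6c1-202, 57.3% also occur in transcripts of another gene, and 49.0% occur in Ly6c2. For the Ly6c2 transcript Ly6c2-201 the shares are 53.8% and 49.2%. The share is 22.2% for Ly6a-201, 19.7% for Ly6i-201, 9.55% for Ly6g-202 and 1.37% for Ly6e-215. With words of 100 bases, 15.4% of Ly6c1 and 15.8% of Ly6c2 were still shared, and the 4 other transcripts shared none. The division of reads between Ly6c1 and Ly6c2 depends on the bases in which they differ.

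Ly6e was the highest of the members, and ranked 19 by mean level among all protein-coding genes. It reached 1501 TPM (a level per unit of transcript length, scaled to the same total in each library) in replicate 1, 1026 TPM in replicate 2 and 810.2 TPM in replicate 3, a mean of 1112 ± 353 TPM (SD, n = 3). These levels rest on 58649, 67653 and 55745 expected counts, which are the authors' estimates of reads per gene. Ly6e lies at chr15:74955051-74959905 on the plus strand (ENSMUSG00000022587.14). In bulk RNA, fewer cells that express a gene and less of its RNA per cell cannot be told apart, so a level is an average over the culture.

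Ly6a, which encodes Sca-1, was the only other member above 10 TPM in every library. Its level was 247 TPM in replicate 1, 106 TPM in replicate 2 and 52.7 TPM in replicate 3, with 7977, 5568 and 2838 expected counts. The mean was 135 ± 100.4 TPM (SD, n = 3), and without replicate 1 it was 79.6 TPM. Ly6a lies at chr15:74994877-74998031 on the minus strand (ENSMUSG00000075602.10) and ranked 307 among protein-coding genes. Each library was at least 2-fold from the next.

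Ly6c2, one of the genes for the monocyte antigen Ly6C, was far below Ly6e and Ly6a. It stood at 12.8 TPM in replicate 1, 8.40 TPM in replicate 2 and 6.19 TPM in replicate 3, on 378, 411 and 312 expected counts. Its mean was 9.14 ± 3.38 TPM (SD, n = 3), close to the median of 8.48 TPM over all protein-coding genes at 1 TPM or more in every library. Ly6c2 lies at chr15:75108158-75111970 on the minus strand (ENSMUSG00000022584.14).

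Ly6i, the closest relative of Ly6a in the set, was just above the threshold of 1 TPM used here for detection. The levels were 3.13, 1.11 and 1.32 TPM in replicates 1, 2 and 3, on 110, 56 and 67 expected counts, with a mean of 1.85 ± 1.11 TPM (SD, n = 3) and of 1.22 TPM without replicate 1. Replicate 1 was the highest and the others were alike. Ly6i lies at chr15:74979534-74983430 on the minus strand (ENSMUSG00000022586.11).

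Ly6c1 and Ly6g were at or under the limit of these libraries. Ly6c1 (ENSMUSG00000079018.10, chr15:75044018-75048830, minus strand) had 2.03 expected counts and 0.07 TPM in replicate 1 and 0 counts in the others, which allows up to 0.0943 TPM in replicate 2 and 0.0908 TPM in replicate 3 at a limit of 3 counts. Ly6g, the neutrophil marker (ENSMUSG00000022582.4, chr15:75155240-75159126, plus strand), had 0 counts in every library, with limits of 0.146, 0.0895 and 0.0863 TPM. These limits cover counting error only, and levels under them were not detectable at this depth.

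**Figure D1:**
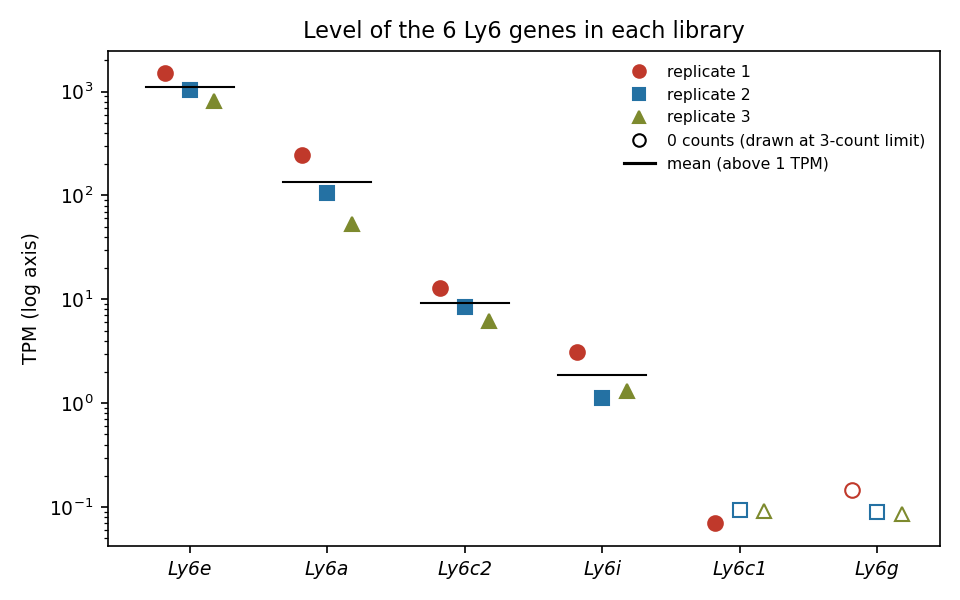
Level of each Ly6 gene in TPM on a log axis, with 1 symbol per library and a line at the mean for genes above 1 TPM. Open symbols mark libraries with 0 counts, drawn at the limit of 3 counts. The order Ly6e, Ly6a, Ly6c2, Ly6i held in all 3 libraries, and replicate 1 was the highest library for each of these 4 genes.

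In order of mean level the members ran Ly6e, Ly6a, Ly6c2, Ly6i, and then Ly6c1 and Ly6g together. Neighbours from Ly6e to Ly6i did not overlap in any library: the lowest Ly6e value (810.2 TPM) lay above the highest Ly6a value (247 TPM), the lowest Ly6a value (52.7 TPM) above the highest Ly6c2 value (12.8 TPM), and the lowest Ly6c2 value (6.19 TPM) above the highest Ly6i value (3.13 TPM). Ly6c1 and Ly6g could not be ordered, since both were under their limits in replicates 2 and 3. Of the 6 members, 4 reached 1 TPM in every library, against 41.3% of all protein-coding genes. Ly6e and Ly6a, 2 of the 6, reached 10 TPM in every library, against 16.9%. The members were picked with these levels known, so nothing is read from these counts.

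Ly6e made up most of the summed level of the members. The sum was 1764 TPM in replicate 1, 1142 TPM in replicate 2 and 870.4 TPM in replicate 3, a mean of 1259 ± 458 TPM (SD, n = 3). Ly6e gave 85.1%, 89.8% and 93.1% of it, and Ly6a gave 14.0%, 9.32% and 6.06%. Where the summed level was higher, the share of Ly6a was larger and that of Ly6e smaller, and the ratio of Ly6e to Ly6a in TPM was 6.07, 9.64 and 15.4 in replicates 1, 2 and 3. The share of Ly6c2 hardly moved, at 0.724 ± 0.0124% (SD, n = 3), and Ly6i gave 0.142 ± 0.0410%.

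Ly6c2 accounted for nearly all of the reads given to the Ly6C pair. In replicate 1, Ly6c1 held 2 of 380 pair counts, after rounding, or 0.526% (95% exact Clopper-Pearson interval 0.0638% to 1.89%, for counting error only). In replicate 2 it held 0 of 411, which allows a share of up to 0.730% at the limit of 3 counts (upper end of the same interval 0.894%). In replicate 3 it held 0 of 312, which allows up to 0.962% (upper end 1.18%). Set against the Ly6c1 limit of 3 counts per library, Ly6c2 was at least 89.1-fold higher in TPM in replicate 2 and at least 68.2-fold higher in replicate 3, as far as counting error goes. The Clopper-Pearson intervals take each count as a read assigned without doubt. The authors' own intervals are wider. In replicates 1, 2 and 3 they reach up to 0.927, 0.515 and 0.510 TPM for Ly6c1 and down to 11.4, 7.60 and 5.56 TPM for Ly6c2. In replicate 1 the authors' interval for Ly6c1 starts at 0.185 TPM, above its estimate of 0.07 TPM. The authors' posterior SD of the count, which describes how reads could be divided between genes, was 0.41, 0.48 and 0.44 counts for both genes in replicates 1, 2 and 3 and 0 for the 4 other members.

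A second quantification of the same libraries, made by the authors from the read files rather than from alignments to transcripts, gave Ly6c1 3.14, 3.13 and 3.10 counts in replicates 1, 2 and 3. It gave Ly6c2 407, 438 and 322 counts. The share of Ly6c1 in the pair was then 0.765%, 0.711% and 0.952%, and the TPM ratio of Ly6c2 to Ly6c1 was 122, 128 and 97.4. Both quantifications thus placed less than 1% of the pair's counts on Ly6c1, each by its own division of the same reads. Ly6g again had 0 counts in every library.

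The levels of the other members were lower in TPM in the second quantification, as were those of most genes. The log2 ratio of second to first TPM had a median of -0.99, -0.87 and -1.19 over the 7955 protein-coding genes at 1 TPM or more in both. Relative to that median the ratio was -0.04 ± 0.03 for Ly6e, -0.10 ± 0.02 for Ly6a, -0.04 ± 0.03 for Ly6c2 and 0.07 ± 0.14 for Ly6i (log2, SD, n = 3). None of these 4 members was over 2-fold from the median in every library. Only 0.302% of the 7955 genes were, so nothing is read from this, and Ly6i is not among the 7955. The ratio of Ly6a was low, with 7.68% of those genes below it. The tables are scaled separately, and the second one placed Ly6e at 542 ± 192 TPM, Ly6a at 63.8 ± 47.3 TPM, Ly6c2 at 4.46 ± 1.81 TPM and Ly6i at 0.945 ± 0.517 TPM (SD, n = 3). Ly6i was then under 1 TPM in replicates 2 and 3, which left 3 members above that level in every library. In counts the quantifications lay closer, with ratios of second to first between 1.03 and 1.22 for these 4 genes.

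**Figure D2:**
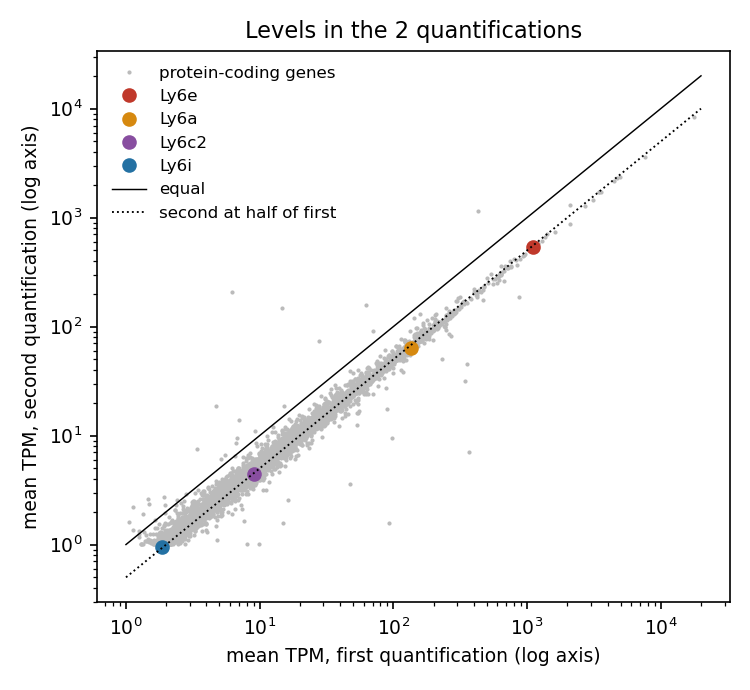
Mean TPM of protein-coding genes at 1 TPM or more in both means, first quantification on the x axis and second on the y axis, both on log axes, with the Ly6 genes as large coloured points. The solid line marks equal values and the dotted line a second value at 0.5 times the first. Ly6e, Ly6a and Ly6c2 lie on the band formed by the other genes, and Ly6i, drawn although it was under 1 TPM in the second, lies at its lower end.

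Replicate 1 was the highest library for all 4 detected members. Of protein-coding genes at 1 TPM or more in every library, 55.9% were highest there, and protein-coding genes held 32.7% of all TPM in replicate 1 against 27.4% and 27.8% in the others. After scaling by trimmed-mean (TMM) factors, which moved the libraries by -0.09, 0.08 and 0.01 on the log2 scale, the 4 members were still highest in replicate 1, against 34.6% of those genes. Ly6e, Ly6a and Ly6c2 fell in the order replicate 1, 2, 3, which 23.1% of detected protein-coding genes did. Ly6i had replicate 2 as its lowest library.

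The distance between the highest and the lowest library differed among the members. It was 4.69-fold for Ly6a, 2.82-fold for Ly6i, 2.07-fold for Ly6c2 and 1.85-fold for Ly6e, with a median of 1.26-fold over detected protein-coding genes. At least a 2-fold distance was seen in 3 of the 4 members, against 3.88% of those genes, and with TMM scaling Ly6c2 fell to 1.94-fold. The SD of log2(TPM + 1) was 1.11 for Ly6a, 0.52 for Ly6i, 0.47 for Ly6c2 and 0.45 for Ly6e, above the median of 0.15. Only 8 of the 9092 detected protein-coding genes (0.0880%) had a larger SD than Ly6a. Without replicate 1 the SD was 0.71 for Ly6a, 0.27 for Ly6c2 and 0.24 for Ly6e, and that of Ly6i was 0.10 and lay below the median of 0.11 over the 2 remaining libraries.

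The TLR4 and interferon pathways are known to act on Ly6a and Ly6e, so genes induced by interferon were set beside them. In the list of 18 such genes, none of them a member, all were detected, and the list's median level was 248 ± 87.9 TPM (SD, n = 3). All 18 were highest in replicate 1, as were the detected Ly6 members and 55.9% of all detected protein-coding genes. The lowest library was another one, however: 15 of the 18 were lowest in replicate 2, whereas Ly6e, Ly6a and Ly6c2 were lowest in replicate 3, as were 3 of the 18. The shares of all detected genes lowest in replicates 2 and 3 were not computed, so nothing is read from this contrast. The list's highest genes were Ifit2 (1203, 637 and 969 TPM in replicates 1, 2 and 3), which encodes an RNA-binding antiviral protein, and Rsad2 (1232, 499 and 742 TPM), which encodes the antiviral enzyme viperin.

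On the log2(TPM + 1) scale, the deviation from the gene's own mean over the 3 libraries was 1.14, -0.07 and -1.07 for Ly6a in replicates 1, 2 and 3. It was 0.48, -0.07 and -0.41 for Ly6e, 0.50, -0.06 and -0.44 for Ly6c2 and 0.60, -0.37 and -0.23 for Ly6i. The interferon-stimulated list had median deviations of 0.44, -0.40 and -0.11, and all detected protein-coding genes had 0.08, -0.06 and -0.02. Ly6e and Ly6c2 thus moved by nearly the same amounts, and Ly6a by more in the same order. The order of Ly6i in replicates 2 and 3 rests on 1.11 against 1.32 TPM. The authors' intervals for these, 0.804 to 1.47 and 0.999 to 1.70 TPM, overlap, so nothing is read from that order. The 12 receptors, kinases and factors of interferon signalling were all at 1 TPM or more, and 10 of them were highest in replicate 1, against 55.9% of detected protein-coding genes. What separated replicate 1 from the others was not tested.

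**Figure D3:**
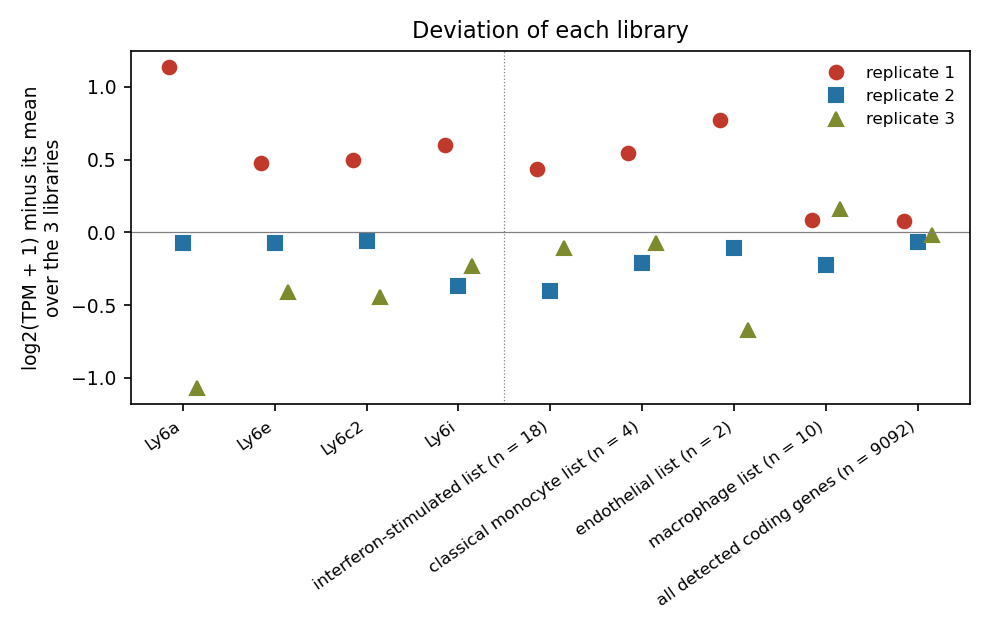
Deviation of each library from the mean over the 3 libraries, in log2(TPM + 1), for the 4 detected Ly6 genes and, right of the dotted line, the median over the detected genes of each list (n genes). Ly6a spans from 1.14 in replicate 1 to -1.07 in replicate 3, while the macrophage list and all detected protein-coding genes stay within 0.22 of 0.

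Several members are markers, so the cell types they mark were read from their other markers. List counts at 1 TPM or more in every library, here and below, stand against 41.3% of all protein-coding genes. The macrophage list had 10 of 10 genes at 1 TPM or more in each library and a median of 181 ± 23.0 TPM (SD, n = 3), led by the lysozyme gene Lyz2 at 3120 ± 176 TPM and the F4/80 gene Adgre1 at 641 ± 148 TPM. Their median deviations of 0.08, -0.22 and 0.16 in replicates 1, 2 and 3 did not follow the order of Ly6e, Ly6a and Ly6c2. The label of a macrophage culture was therefore matched by these markers.

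Beside the absence of Ly6g, the neutrophil list had 4 of 12 genes at 1 TPM or more, with a summed level between 40.6 and 53.3 TPM. Csf3r, the receptor for granulocyte colony-stimulating factor, gave most of it with 40.0, 27.5 and 34.3 TPM. S100a9, a calprotectin subunit abundant in neutrophils, stood at 3.84, 5.56 and 9.97 TPM. S100a8 (3.78, 3.90 and 5.34 TPM) and Mmp8 (2.20, 2.41 and 1.76 TPM) also passed 1 TPM in every library. Ngp stood at 0.51, 0.50 and 1.30 TPM, and Ltf at 0.05, 0.57 and 0.44 TPM. Retnlg had 0 counts in every library, and Cxcr2, Elane, Mpo and Cd177 did not pass 0.06 TPM.

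Beside the Ly6c2 level, the classical monocyte list had 4 of 8 genes at 1 TPM or more, near the share of all protein-coding genes. Its sums were 70.9, 33.4 and 34.8 TPM in replicates 1, 2 and 3. Plac8, its highest gene, gave 44.3, 23.5 and 18.8 TPM, the order of Ly6c2. The chemokine receptor gene Ccr2, which defines these monocytes, stood at 1.92, 2.30 and 2.16 TPM and did not follow Ly6c2. In the list for nonclassical monocytes, which carry little Ly6C, 1 of 6 genes passed 1 TPM, the integrin gene Itgal at 24.9, 12.4 and 28.7 TPM. The part of any remaining monocytes in the Ly6c2 level was not tested.

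Beside the Ly6a level, the stem and progenitor list had 1 of 9 genes at 1 TPM or more and summed to 3.07, 2.07 and 3.27 TPM. Procr was its highest gene at 2.04, 1.48 and 2.05 TPM, Kit stood between 0.16 and 0.24 TPM, and Mecom had 0 counts in every library. Endothelial cells also carry Sca-1 and Ly6C, and 2 of the 9 genes of the endothelial list passed 1 TPM in every library, with list sums of 15.3, 7.08 and 5.19 TPM. Kdr (9.26, 3.09 and 1.97 TPM) and Vwf (4.47, 3.05 and 1.56 TPM) fell in the order of Ly6a. Pecam1 (1.12, 0.51 and 1.32 TPM) did not, and was highest in replicate 3. The defining gene Cdh5 stood at 0.36, 0.23 and 0.28 TPM, Cldn5 at 0.02 TPM or less, and Tek at 0 TPM, with 1 count in replicate 2 and 0 in the others. The part of such cells in the Ly6a level was not tested. None of the 8 T and B cell genes passed 1 TPM, and their sum was 0.84 TPM or less.

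The genes most like Ly6a over the libraries were found among 4070 protein-coding genes with a mean of 10 TPM or more, by the distance between deviations in log2(TPM + 1). The nearest were Rgs1 (144, 65.6 and 28.1 TPM in replicates 1, 2 and 3, distance 0.14), which encodes a regulator of G protein signalling, the mitochondrial gene mt-Atp6 (107, 53.0 and 27.6 TPM, distance 0.21) and Lipg (21.5, 7.27 and 2.79 TPM, distance 0.26), which encodes endothelial lipase. No gene lay within a distance of 0.1 of Ly6a. For Ly6e, 7 genes did. The nearest were Rasgef1b (79.8, 53.6 and 41.9 TPM, distance 0.02), Ifitm3 (1290, 912 and 685 TPM, distance 0.05), an interferon-induced gene whose product hinders virus entry, and Prdx4 (30.9, 20.3 and 17.2 TPM, distance 0.08). With 3 libraries such likeness rests on 3 points a gene and describes these samples alone.

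Transcripts of the members differed in how evenly a gene's abundance was divided. Of the 16 annotated Ly6e transcripts, Ly6e-215, of 1122 nt, held 73.5%, 78.2% and 81.4% of the gene's abundance in replicates 1, 2 and 3, and Ly6e-213, of 575 nt, held 23.1%, 18.2% and 15.7%. The larger share of Ly6e-215 thus went with the lower Ly6e level. Transcripts of Ly6e annotated with a retained intron held 0.507% on average. Of the 4 Ly6c2 transcripts, Ly6c2-201 held 95.1 ± 2.03% (SD, n = 3), and the retained-intron form held 0.857%.

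Ly6a was divided more evenly, with 4 of its 6 transcripts at 5% or more in at least 1 library. Ly6a-201, of 819 nt, held 44.2%, 44.9% and 45.7%, and Ly6a-204, of 955 nt, held 41.4%, 38.4% and 36.7%. Ly6a-203 held 6.56 ± 0.766% and Ly6a-205 held 5.28 ± 2.01% (SD, n = 3). The second quantification gave Ly6a-204 the larger share, 47.5 ± 1.08%, and Ly6a-201 the smaller, 30.8 ± 0.969% (SD, n = 3), so which of them leads depends on the quantification.

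Both Ly6i transcripts were used, and their order differed between libraries. Ly6i-201, of 1156 nt, held 58.8%, 44.1% and 40.2% in replicates 1, 2 and 3, and Ly6i-202, of 620 nt, held the rest. These shares rest on the few counts of Ly6i. The 2.03 counts of Ly6c1 in replicate 1 were all placed on Ly6c1-202, whereas the second quantification placed its counts on Ly6c1-206 in every library.

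**Figure D4:**
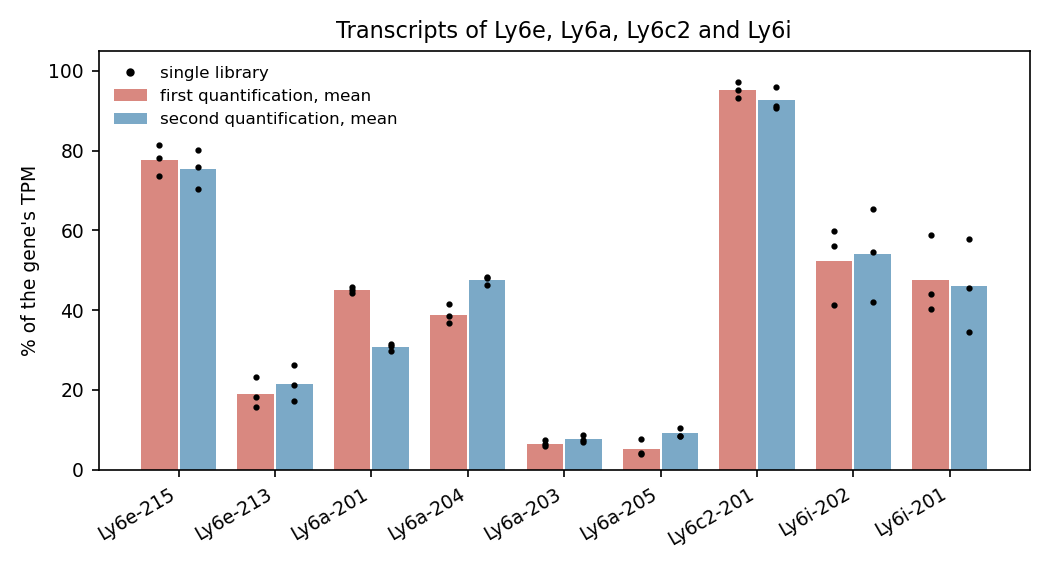
Percent of a gene's TPM given by each transcript with 5% or more in at least 1 library, for Ly6e, Ly6a, Ly6c2 and Ly6i. Bars are means over the 3 libraries in the first (red) and second (blue) quantification, and points are single libraries. Ly6a-201 and Ly6a-204 change places between the quantifications, while Ly6e-215 and Ly6c2-201 lead in both.

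Along the chromosome, few of the annotated genes were detected. From Ly6e to Ly6g the genes span 204 kb of mm10 with 13 annotated genes, the 6 members and 7 others that are pseudogenes or noncoding genes, none of which reached 1 TPM in every library. From Psca to Gpihbp1, the wider stretch of Ly6-family genes, 25 of 50 annotated genes are protein-coding, and the 4 that reached 1 TPM in every library were Ly6e, Ly6i, Ly6a and Ly6c2. Ly6c1, under its limit, lies between Ly6a and Ly6c2, which were detected. Ly6e and Ly6g are on the plus strand and the other 4 on the minus strand, and no annotated gene overlaps a member, so the counts do not depend on telling strands apart at overlaps.

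**Figure D5:**
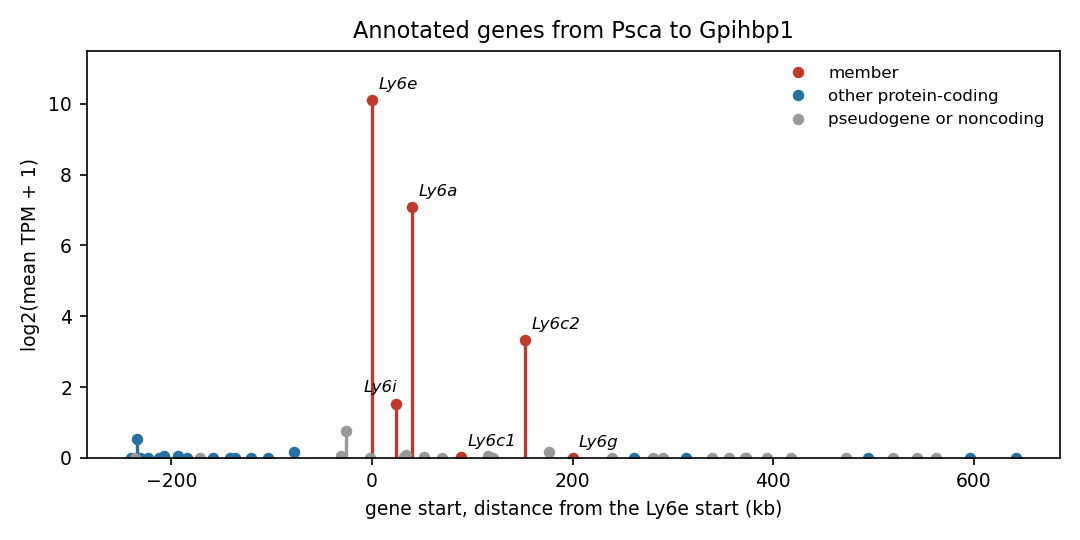
Mean level of the 50 annotated genes from Psca to Gpihbp1, as log2(mean TPM + 1), against the distance of each gene's lower annotated coordinate from that of Ly6e in kb. Members are red, other protein-coding genes blue, and pseudogenes or noncoding genes grey. Ly6e, Ly6a, Ly6c2 and Ly6i stand above a row of genes near 0, with Ly6c1 and Ly6g among the latter.

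Ly6c2 was detected while Ly6c1 and Ly6g were not, and the sequences upstream of these 3 genes are shown for comparison. The 150 bases before the RefSeq start (GRCm38.p6) are printed 5′ to 3′ on the strand of the gene, at chr15:75048838-75048987 (minus) for Ly6c1, chr15:75111972-75112121 (minus) for Ly6c2 and chr15:75155111-75155260 (plus) for Ly6g. Capitals mark matches to the sequence TATAAA, which is the core of the TATA box, to the sequence CCAAT, the core of another common promoter element, and to GAGGAAGT, a sequence with the GGAA core that ETS factors such as PU.1 recognise.
Ly6c1: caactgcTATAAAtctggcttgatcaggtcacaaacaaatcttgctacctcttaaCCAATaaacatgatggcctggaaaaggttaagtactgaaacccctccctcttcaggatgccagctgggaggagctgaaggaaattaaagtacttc
Ly6c2: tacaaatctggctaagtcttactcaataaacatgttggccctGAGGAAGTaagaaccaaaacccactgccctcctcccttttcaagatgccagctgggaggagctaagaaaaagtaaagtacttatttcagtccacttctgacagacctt
Ly6g: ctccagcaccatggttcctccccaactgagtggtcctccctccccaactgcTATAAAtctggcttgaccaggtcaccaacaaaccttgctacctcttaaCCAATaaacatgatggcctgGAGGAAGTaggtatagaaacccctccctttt
GAGGAAGT occurs at position -108 from the start of Ly6c2, and again at position 27 after it, and at -31 in Ly6g, but not in the window of Ly6c1. The GGAA core itself does occur in the printed bases of Ly6c1, unmarked. Other sequences with this core were not searched for, so only GAGGAAGT is missing there. TATAAA lies at -143 and CCAAT at -95 in Ly6c1, and at -99 and -51 in Ly6g, with neither in Ly6c2. On both strands of all 32817 RefSeq promoters of 300 bases (250 before to 50 after the start), GAGGAAGT occurs in 3.20%, TATAAA in 13.6% and CCAAT in 37.4%. Aligned over those 300 bases, with gaps counted as differences, Ly6c1 was 62.3% identical to Ly6c2 and 62.5% to Ly6g, and Ly6c2 and Ly6g were 48.8% identical. Gaps took 68 of 334, 88 of 344 and 154 of 377 alignment columns in these pairs. The identity of the bases that were aligned to each other is therefore higher than these percentages. The motif TTCNNNGAA, found in sites of STAT factors, occurs in 8.29% of promoters, and these letters are not in the 3 windows. A match describes letters only, and Ly6g, with 0 counts, and Ly6c2 share the GAGGAAGT match.

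Most of the wider family was not detected. Of 47 listed genes with a Ly6 or urokinase-receptor type domain, 42 matched the annotation, and of the 36 that are not members, 2 reached 1 TPM in every library. These were the complement inhibitor gene Cd59a (1.67, 1.18 and 1.44 TPM in replicates 1, 2 and 3) and the urokinase receptor gene Plaur (1.83, 1.65 and 1.44 TPM). Both were below Ly6c2 in every library, and 23 of the 36 had 0 TPM throughout.

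Most genes that build and attach the GPI anchor of Ly6 proteins were detected. Of the 20 genes of anchor synthesis, 18 were detected, with a median of 4.54 ± 0.357 TPM (SD, n = 3), and of the 11 genes of the transamidase and of anchor remodelling 10 did, with a median of 9.91 ± 1.16 TPM. Of the 18 detected synthesis genes 8 were highest in replicate 1, and of the 10 detected transamidase and remodelling genes 4 were, against 55.9% of all detected protein-coding genes. Dpm2, a subunit of the dolichol-phosphate mannose synthase, was the highest of the synthesis list at 24.7, 22.9 and 19.5 TPM.

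Ly6e was the highest of the GPI-anchored genes listed, members included. Among 22 other genes for GPI-anchored proteins, 11 reached 1 TPM in every library. The highest were Bst2, the gene of the virus-tethering protein tetherin, at 817, 521 and 563 TPM in replicates 1, 2 and 3, and the leukocyte antigen gene Cd52 at 691, 437 and 393 TPM. Ly6e exceeded both in each library, and Ly6a was below both. Summed, the 22 other genes, Fcgr4 included, gave 1862, 1197 and 1208 TPM, and the 6 Ly6 members gave 1764, 1142 and 870.4 TPM. In replicates 1 and 2 these sums differed by less than the Fcgr4 level, so without Fcgr4 the sum of the members was the larger there.

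Of the whole libraries, replicates 1, 2 and 3 held 32055937, 43616634 and 47864978 expected counts of annotated genes. The 6 members together took 2094, 1689 and 1232 CPM (counts scaled to the same total in each library) of these. The shallowest library, replicate 1, was the one in which the detected members were highest. Comparing the counts of library pairs gave a chi-square between 92.0 and 108.2 per gene, so no pair was a single library deposited again.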

How the data were processed

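Total RNA-seq tables of 3 libraries from a single group were used. Per the text deposited with the files, they were made on mm10 with GENCODE M21, with programs, versions, read length and strandedness not given in the sources used here. Per the file headers, the gene tables have the column layout of RSEM. They hold expected counts, which the authors estimated per gene and which were used as deposited, a posterior SD of the count, and TPM, which the authors scaled over 81881 entries including tRNAs and spike-ins. The deposited transcript tables give each transcript's percent of its gene. Second transcript tables, with the column layout of kallisto, hold deposited estimated counts and TPM, which were added up per gene.

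All 55536 annotated genes were read by identifier. Means and SDs of TPM were taken over libraries, and log values used a pseudocount of 1. A gene was called detected at 1 TPM or more in every library, and a limit of 3 counts was put on genes at 0. TMM factors came from edgeR 4.0.16 (R 4.3.3) on rounded counts and served as an alternative scaling. An exact sign-flip test over 3 libraries cannot go below 0.25, so no test was made. Shared words and coding sequences came from the GENCODE transcripts, aligned with Biopython 1.88, and promoters from the RefSeq table, which gave 3 of the 6 members. The TMM scaling and the likeness search were tested on simulated data. Other steps ran in Python 3.11.15 with pandas 2.3.3, numpy 2.4.6 and scipy 1.17.1.

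The members and the 13 gene lists were chosen with earlier results of these data known. Named by rule were the members, family genes detected in every library, at most the 2 highest genes of each other list, the 3 genes most like each member above 10 TPM, and member transcripts at 5% or more in a library. Ccr2, Pecam1, S100a8, Mmp8, Ngp, Fcgr4 and the marker genes named as low or at 0 were added after their values were seen.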

Additional observations from a re-analysis of the deposited data

How the results depend on the processing

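Levels, their sum, the count of detected members and the ratio of the Ly6C pair were recomputed with the second quantification, with TMM scaling and without each library. The spread was also recomputed with a pseudocount of 0.1 and no filter, and the difference between quantifications without each library and with another background. Transcript shares, lists and likeness were not recomputed in this way. Of 89 alternatives, 84 moved a value by no more than the SD between libraries or kept a count within 1.5 times or a spread above that of all genes. Many of these could not have come out otherwise. Leaving out 1 of 3 libraries cannot move a mean by more than the SD, and TMM scaling cancels in the ratio of the Ly6C pair. The number 84 is therefore no measure of robustness. The second quantification, which is scaled separately, lowered Ly6e to 542 TPM, Ly6a to 63.8 TPM, Ly6c2 to 4.46 TPM, Ly6i to 0.945 TPM and the sum to 611 TPM, and left 3 members detected. Without replicate 1 the spread of Ly6i was 0.0968 and fell below that of all genes, the 1 exception among 28 spread alternatives, and the highest value of its spread, 0.685, came without replicate 3. The difference of Ly6a between quantifications was -0.0791 with genes at 10 TPM or more as background. Leaving out 1 library gave a Ly6a mean between 79.6 and 177 TPM, Ly6i between 1.22 and 2.23 TPM, Ly6c2 between 7.30 and 10.6 TPM and Ly6e between 918 and 1263 TPM, and the summed level between 1006 and 1453 TPM. For Ly6a and Ly6i, replicate 1 moved the mean by over 1.5 times. No paired analysis was possible because all libraries belong to a single group. With 3 libraries of one donor identifier, no untreated cells and no cell counts, neither a response to Lipid A nor a cell type share was measured. Depth limits Ly6c1, Ly6g and the transcripts of Ly6i.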
